A study of Mus musculus with 2 samples.

Results

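The Reg genes encode small secreted proteins of the C-type lectin fold. The 7 genes described here, Reg1, Reg2, Reg3a, Reg3b, Reg3d, Reg3g and Reg4, were chosen by name, by matching their Ensembl identifiers to mouse GENCODE symbols, and are 7 of the 43346 Ensembl genes in the tables. Polyadenylated RNA was sequenced from the small intestine of 1 adult female C57BL/6J mouse, aged 10 weeks. No genotype, treatment or time was compared. There were 2 technical libraries of 1 biological replicate, and technical replicate 2, prepared in 2015, was not part of the publication that used technical replicate 1. Technical replicate 1 is the first library below and technical replicate 2 the second, and pairs of values follow that order. Both libraries come from the same animal, so the values say nothing about variation between mice, and p-values cover only counting error between these libraries.

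Reg proteins are released by epithelial and acinar cells. In the gut lumen, Reg3g and Reg3b are antibacterial lectins that help keep bacteria away from the epithelial surface. Reg3g binds the peptidoglycan of Gram-positive bacteria, while Reg3b also acts on Gram-negative bacteria. Their transcription is raised by microbial signals through MyD88 and by interleukin-22 acting through STAT3. Reg1 and Reg2 are best known from the pancreas, where Reg1 is an abundant acinar product and both have been studied in islet regeneration. Reg4 marks secretory cells of the intestinal epithelium, enteroendocrine cells among them.

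The coding sequences were compared first, because genes this alike could exchange reads. All 7 genes had 6 exons in their main transcript, 5 of them coding, and coding lengths from 474 bases in Reg4 to 528 bases in Reg3a, Reg3b and Reg3d. Reg1 and Reg2 were the most alike, with 82.5% identical bases. Reg3b and Reg3g shared 76.4%, Reg3a and Reg3b 75.2%, and Reg3a and Reg3g 73.3%. Reg3d shared at most 66.8% with any of the others, and Reg4, the gene outside the cluster, at most 63.5%. The longest identical coding run of each of the closest pairs is printed in capitals with 12 bases on either side. In Reg3b and Reg3g it was 35 bases long, lay in exon 2 of 6 and fell within coding bases 14 to 72 (mm10, chr6:78371218-78371276 on the plus strand and chr6:78468491-78468549 on the minus strand).
Reg3b: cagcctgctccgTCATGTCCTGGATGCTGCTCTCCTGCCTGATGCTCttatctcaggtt
Reg3g: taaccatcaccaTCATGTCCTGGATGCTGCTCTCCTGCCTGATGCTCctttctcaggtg
In Reg1 and Reg2 it was 19 bases long and lay in exon 4 of 6 (mm10, chr6:78427416-78427458 and chr6:78406591-78406633, both on the plus strand).
Reg1: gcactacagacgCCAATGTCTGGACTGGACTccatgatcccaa
Reg2: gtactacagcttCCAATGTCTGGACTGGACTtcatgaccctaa
Over whole main transcripts, 6 of the 754 windows of 30 bases in Reg3b also occurred in Reg3g, and none of the windows of any other Reg gene occurred in another gene. No window of 50 bases was shared. The deposited gene counts of all 7 genes were whole numbers with a posterior standard deviation of 0 in both libraries, so the deposited estimates split no read between a Reg gene and another gene.

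**Figure D1:**
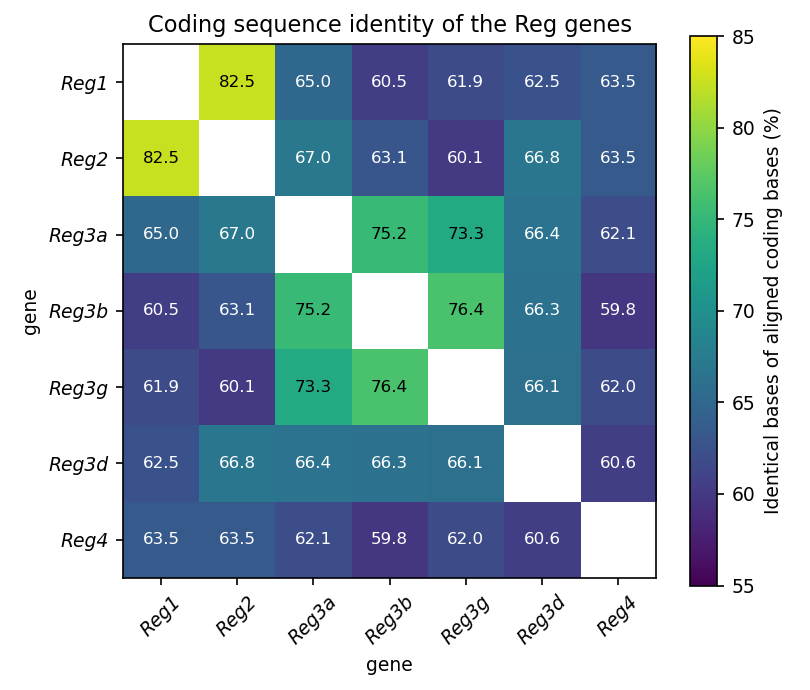
Percent of identical bases in pairwise alignments of the coding sequences of the 7 Reg genes; each cell is one pair, and rows and columns are genes. The Reg1 and Reg2 pair stands highest at 82.5%, followed by the 3 pairs among Reg3a, Reg3b and Reg3g at 73.3% to 76.4%.

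The other Reg genes, 6 in all, form a cluster on chromosome 6. On mm10 it spans chr6:78370657-78468872, or 98.2 kb, in the order Reg3b, Reg3d, Reg3a, Reg2, Reg1 and Reg3g, with Reg3d and Reg3g on the minus strand. The gaps between neighbours ran from 1.84 kb, between Reg3d and Reg3a, to 37.6 kb, between Reg1 and Reg3g. Reg4 lies apart at chr3:98222156-98236748 on the plus strand. Neighbours in the cluster differed widely in level: Reg2, at 0.81 and 2.58 TPM (a level corrected for transcript length), lay between Reg3a at 152 and 517 TPM and Reg1 at 3343 and 5647 TPM. The nearest protein-coding gene outside the cluster, Ctnna2, ended 391 kb away and stood at 0.26 and 0.31 TPM. The other flanking genes were also low: Gcfc2 stood at 2.36 and 2.13 TPM, Lrrtm1 and Lrrtm4 reached at most 0.11 TPM, and Gm9008 and Gm20594 were listed at 0 in both libraries. Reg4 had more active neighbours. Sec22b, a vesicle fusion protein, stood at 28.2 and 70.2 TPM, Phgdh, an enzyme of serine synthesis, at 0.09 and 7.99 TPM, and Notch2 at 0.68 and 2.59 TPM. Zfp697 stood at 0.24 and 0.25 TPM and Adam30 at 0.

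**Figure D2:**
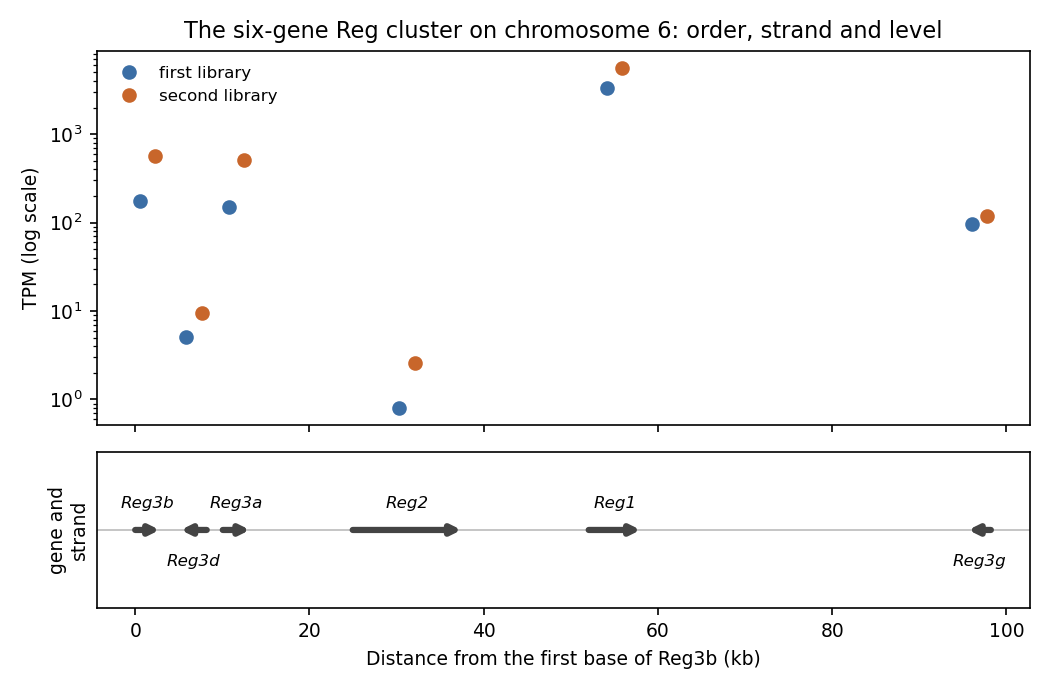
Upper panel, TPM (log axis) of the 6 clustered Reg genes in the first and second library; lower panel, each gene drawn to scale as an arrow in its direction of transcription, against distance in kb from the first base of Reg3b. Reg1 is the highest and Reg2, its nearest neighbour, the lowest gene of the cluster in both libraries.

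The bases before 3 of the Reg3 genes are printed because they hold one word, GCCAAGC, on the gene's own strand (RefSeq promoter table, GRCm38.p6). The 110 bases that end just before each RefSeq start are given, with GCCAAGC and any TATAAA in capitals. They are chr6:78380599-78380708 (plus strand) for Reg3a, chr6:78378866-78378975 (minus strand) for Reg3d and chr6:78468875-78468984 (minus strand) for Reg3g.
Reg3a: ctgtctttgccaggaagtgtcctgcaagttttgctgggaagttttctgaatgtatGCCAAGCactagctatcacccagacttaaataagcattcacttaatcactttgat
Reg3d: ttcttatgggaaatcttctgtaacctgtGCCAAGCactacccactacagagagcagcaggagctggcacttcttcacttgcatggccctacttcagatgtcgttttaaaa
Reg3g: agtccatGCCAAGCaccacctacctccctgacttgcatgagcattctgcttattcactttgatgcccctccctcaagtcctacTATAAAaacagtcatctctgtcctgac
The word GCCAAGC was picked after the sequences had been viewed. It lay at -55 in Reg3a, -82 in Reg3d and -103 in Reg3g, and 4.58% of all 32851 promoters held it within 250 bases before the start, on either strand. Over the 48 bases after it, compared without gaps, Reg3a matched Reg3g at 29 and Reg3d at 28, while Reg3d and Reg3g matched at 21. TATAAA, the core of the TATA box, was present within 250 bases of the start in 4 of the 7 Reg genes, against 12.4% of all promoters. It began at -30 in Reg1 and Reg2, -29 in Reg3b and -27 in Reg3g, so it was held by both the highest and the lowest gene of the family. TTTAT, which overlaps TATAAA on the other strand, was in the same 4 genes and in 37.3% of all promoters. TTCNNNGAA, the pattern bound by STAT proteins, was in 2 of 7, at -129 in Reg3b and -238 in Reg3d, against 7.02% of all promoters. CACCTG was in 5 of 7 and 17.2% of all, and AGATAA in Reg4 alone among the 7 and in 9.99% of all. A match describes the letters in this window and not binding.

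Reg1 was by far the most abundant Reg transcript. It had 57317 counts (95% Poisson interval 56849 to 57788) in the first library and 62902 (62411 to 63396) in the second. At 3343 and 5647 TPM it ranked 5 and 10 among 21461 nuclear protein-coding genes, and it held 87.5% and 80.4% of the summed TPM of the family. Reg2, its closest relative in sequence, had 12 counts (6.20 to 21.0) and 25 counts (16.2 to 36.9), so Reg1 exceeded it 4127-fold and 2189-fold in TPM.

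Reg3b and Reg3a, the former an antibacterial lectin and the latter its close relative next but one along the chromosome, followed at similar levels. Reg3b had 2997 and 6219 counts, which gave 178 TPM (counting interval 172 to 184) and 568 TPM (554 to 582). Reg3a had 2904 and 6425 counts, or 152 TPM (146 to 157) and 517 TPM (505 to 530). The intervals of the 2 genes did not overlap in either library, and Reg3b was 1.17 and 1.10 times as high. Between the libraries Reg3b differed 3.19-fold and Reg3a 3.41-fold in TPM, far more than that gap. As a share of the TPM of nuclear genes they differed 1.13-fold and 1.20-fold, which is about the size of the gap.

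Reg3g, the lectin of Gram-positive bacteria, had 1733 and 1359 counts, or 96.2 TPM (91.7 to 101) and 119 TPM (113 to 125). Reg4 had 1115 and 2503 counts, or 45.3 TPM (42.7 to 48.1) and 158 TPM (151 to 164). These neighbours changed places: Reg3g was 2.12 times Reg4 in the first library and 0.755 times in the second. Reg3d, which is best known from pancreas and stomach, had 89 counts (71.5 to 110) and 107 counts (87.7 to 129), or 5.08 and 9.40 TPM. Reg2 came last in both libraries, at 0.81 TPM (0.42 to 1.41) and 2.58 TPM (1.67 to 3.81). The counts of Reg2 lie above the 3 counts that a reading of 0 would still allow, which correspond to 0.106 and 0.122 CPM (counts scaled to library size). The family thus ran from Reg1 through Reg3b, Reg3a, Reg3g and Reg4 to Reg3d and Reg2 by mean TPM. In bulk tissue, fewer cells of a type and less RNA per cell cannot be told apart.

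**Figure D3:**
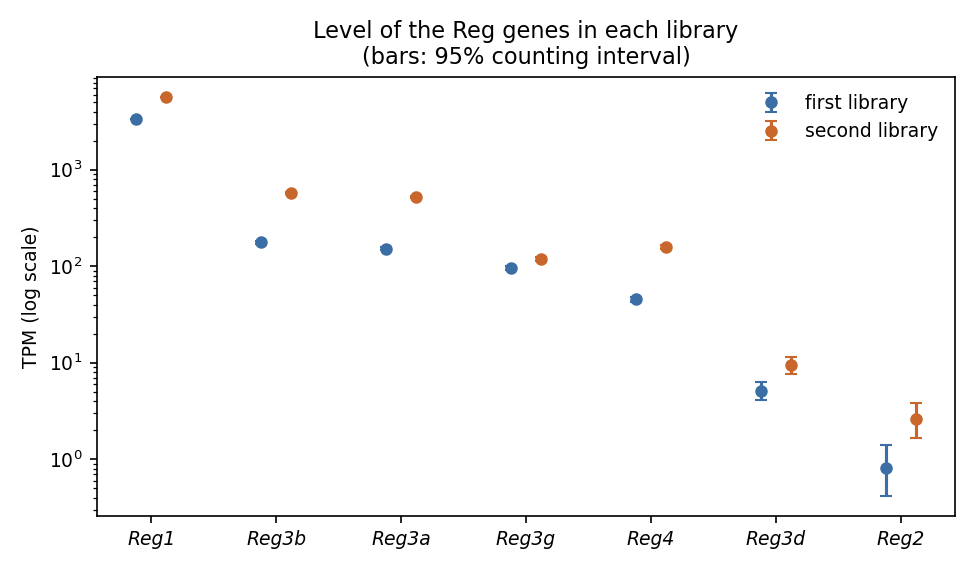
TPM (log axis) of each Reg gene in the first and second library, ordered by mean TPM, with bars for the 95% counting interval, which for the abundant genes is smaller than the point. All 7 points of the second library lie above those of the first, and Reg3g and Reg4 change order.

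All 7 genes had a higher TPM in the second library, by 1.24-fold for Reg3g to 3.48-fold for Reg4, but TPM is a share and the rest of the library also differed. Mitochondrial genes and 11 nuclear copies of them held 72.3% of TPM in the first library and 21.6% in the second. As a share of the TPM of all other genes, the whole family took 1.38% and 0.896%, and the 4 Reg3 genes together 0.156% and 0.155%. Rescaled in this way, Reg1 stood at 12080 and 7203 TPM, Reg3d at 18.4 and 12.0 TPM and Reg3g at 348 and 152 TPM, all lower in the second library. On the same scale Reg3b stood at 643 and 724 TPM, Reg3a at 548 and 660 TPM, Reg4 at 164 and 201 TPM and Reg2 at 2.93 and 3.29 TPM, all higher in the second. The direction between libraries therefore depended on the scale for Reg1, Reg3d and Reg3g.

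Counts were then tested with a two-sided exact binomial test scaled by trimmed mean of M-values (TMM), with Benjamini-Hochberg adjustment over 15194 genes. A gene counted as different at an adjusted p under 0.05 and a difference of 2-fold or more. By that rule 0 of the 7 Reg genes differed, against 67.7% of all genes tested (40.2% higher in the second library and 27.5% higher in the first). Without the limit on the fold, 5 of 7 passed, 3 higher in the second and 2 in the first, against 88.7% of all genes (48.8% and 39.9%). The count of 0 was not robust to scaling, since DESeq2 size factors gave 1 gene and scaling by total counts gave 4. Under DESeq2 size factors 68.1% of all genes differed, and 39.7% of all genes were higher in the second library. Under total counts 61.4% differed, and 51.4% of all genes were higher in the second library.

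Log2 ratios, second over first library, put Reg3g farthest from 0 at -0.98 (counting SE 0.052, adjusted p = 4.987e-79 by the exact binomial test), just inside the 2-fold limit. Reg1 was at -0.50 (SE 0.0083) by TMM, and at 0.34 when scaled by total counts. Reg4 at 0.53 (SE 0.052), Reg3a at 0.51 (SE 0.032) and Reg3b at 0.42 (SE 0.032) were higher in the second library under TMM, DESeq2 and total-count scaling alike. Reg3d, at -0.37 (SE 0.21, adjusted p = 0.08786 by the exact binomial test), and Reg2, at 0.40 (SE 0.50, adjusted p = 0.5232 by the same exact test), did not pass at any fold. The median over the 7 genes was 0.40, and over all genes tested 0.26. Scaling by total counts moved every log2 ratio by 0.84.

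Ratios of one Reg gene to another within a library do not depend on scaling, so they were compared between the libraries. Of the 21 pairs, 20 kept their order in TPM, the exception being Reg3g and Reg4. In counts, which are not corrected for length, Reg3b and Reg3a also changed places, at 2997 beside 2904 and 6219 beside 6425. The change of each count ratio was then computed, and the 95% counting interval of the change excluded 1 in 13. Reg3a, Reg3b and Reg4 moved nearly together. The ratio of Reg3a to Reg4 was 3.34 and 3.28 in TPM, a change in count ratio of 0.986 (interval 0.907 to 1.07). Reg3b to Reg4 changed by 0.924 (0.851 to 1.00) and Reg3b to Reg3a by 0.938 (0.882 to 0.998). Reg3g moved away from them. Reg3b was 1.85 times Reg3g in the first library and 4.77 times in the second, a change of 2.65 (2.43 to 2.88), and Reg3a over Reg3g changed by 2.82 (2.60 to 3.07). Reg1 was also lower against this group in the second library: it was 18.8 and 9.94 times Reg3b, a change of 0.529 (0.506 to 0.553), and 73.8 and 35.8 times Reg4, a change of 0.489 (0.455 to 0.525). Against Reg3g, Reg1 changed by 1.40 (1.30 to 1.50). Reg1 over Reg3d changed by 0.913 (0.689 to 1.21), an interval that holds 1 and is wide because Reg3d had few counts. These intervals cover counting error only.

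**Figure D4:**
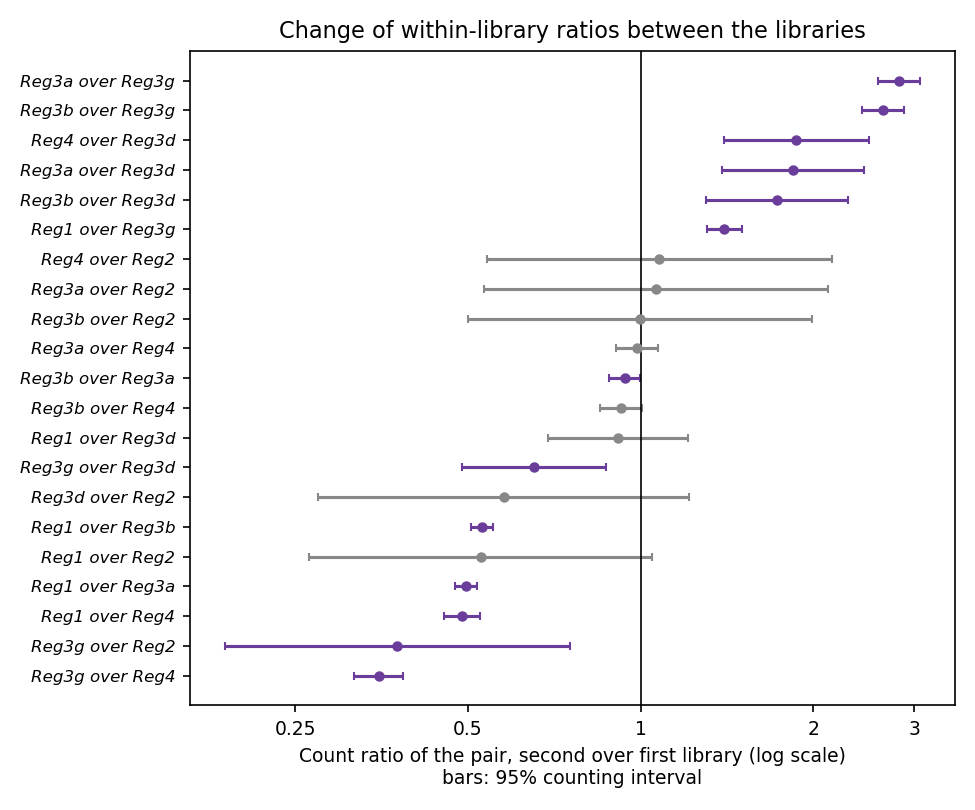
Change of the count ratio of each of the 21 pairs of Reg genes between the libraries (log axis, 1 means the same ratio in both), with 95% counting intervals; purple intervals exclude 1 and grey ones hold it. Pairs of Reg3g with Reg3a, Reg3b, Reg4 or Reg2 lie farthest from 1, and Reg3a over Reg4 lies at 0.986.

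The libraries differed strongly with GC content. Over 15127 tested nuclear genes, the Spearman correlation of GC content with the log2 ratio was 0.85, across genes that share the same pair of libraries. The Reg genes are GC-poor, from 44.3% in Reg2 to 48.0% in Reg4, where the median tested gene had 50.4%. Among the 2959 tested nuclear genes within that range, 46.4% differed by the rule above and the median log2 ratio was -0.89. All 7 Reg genes lay above the GC trend. With the GC trend subtracted, the log2 ratio was 1.68 for Reg2, 1.28 for Reg3a, 1.26 for Reg3b, 0.92 for Reg4, 0.63 for Reg1, 0.55 for Reg3d and 0.22 for Reg3g. Reg2, Reg3a and Reg3b then passed the rule, 3 of 7 against 35.2% of all genes (17.5% higher in the second library). Reg3g is the exception that rests on annotation. Its gene GC of 44.6% averages 2 transcripts, and at the 47.1% of its main transcript, an alternative added after seeing the data, its log2 ratio without the trend was -0.48, while the number of Reg genes past the rule stayed at 3, against 29.2% of all genes (15.2% higher in the second library). Over the 7 genes the Spearman correlation of GC content with log2 ratio was 0.79 by the gene mean and 0.36 by the main transcript. What part GC content had in the differences between Reg genes was not tested.

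**Figure D5:**
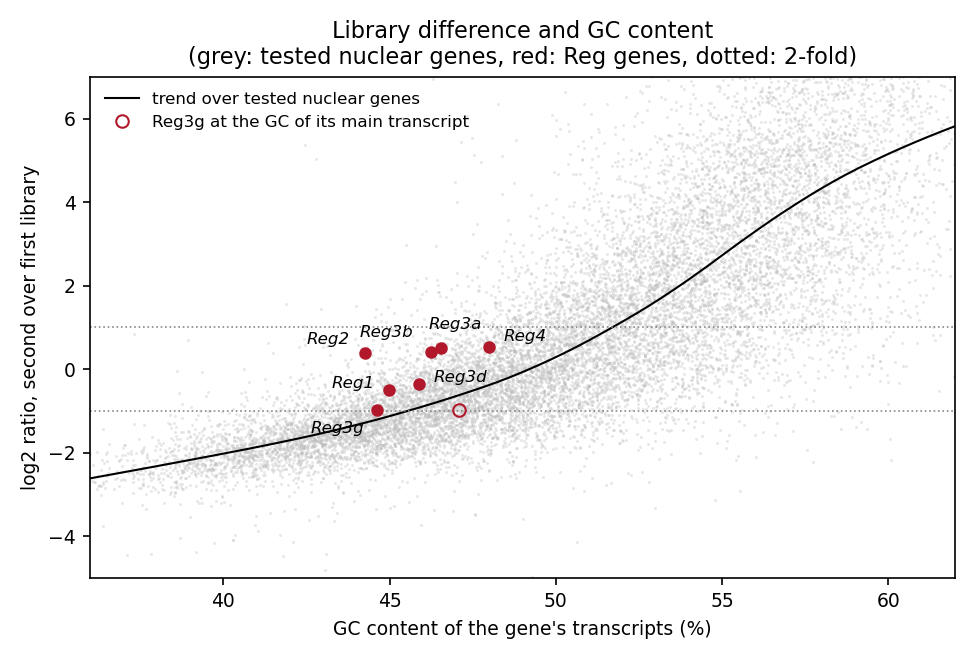
Log2 ratio of the second over the first library against GC content for tested nuclear genes (grey), with their trend (line) and the 7 Reg genes (red); dotted lines mark 2-fold, and 709 of 15127 genes lie outside the axes. All 7 filled points lie above the trend and between the 2-fold lines, and the open circle shows Reg3g below the trend at the GC content of its main transcript.

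Of the Reg genes, 5 had 1 transcript in the tables and 2 had a pair. In Reg3g the protein-coding transcript ENSMUST00000032089 took 97.9% and 99.0% of the gene's TPM. The other, ENSMUST00000176650, is annotated as a retained intron and is 2089 bases long. It held 2.09% and 0.99% of TPM, and 113 and 42.6 expected counts, or 6.53% and 3.13% of the gene's counts. Reg3d had all its counts, 89 and 107, on ENSMUST00000089667 and 0 on its second transcript.

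Genes with a level pattern like that of a Reg gene were sought over the 2 libraries, by the smallest distance in log2(TPM + 1). Near Reg1 were Fabp2, the intestinal fatty acid binding protein, at 3191 and 5248 TPM (distance 0.13), and Selenop at 4787 and 5041 TPM (0.54). Nearest to Reg3b were Chchd2 at 163 and 566 TPM (0.12), Cyp2b10 at 164 and 616 TPM (0.16) and Rpl36a at 156 and 535 TPM (0.21). With 2 points each, likeness describes these libraries only.

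Genes upstream of the Reg3 genes, proposed receptors, and other secreted lectins and antimicrobials were read from 4 lists. Of the 53 that could be tested, 24 passed as higher in the second and 13 as higher in the first. Together that is 37, or 69.8%, close to the 67.7% of all genes tested. With the GC trend removed 22 differed, or 41.5%, against 35.2% of all genes. The background was 40.2% for the second and 27.5% for the first library, or 17.5% and 17.6% without the trend. In the upstream interleukin-22, interleukin-6, interleukin-17 and STAT3 list, 15 of 19 genes could be tested, with 8 higher in the second and 3 higher in the first (1 and 2 without the GC trend). The median log2 ratio of this list was 1.54, and -0.29 without the trend. The receptor chain shared by interleukin-22 and interleukin-10, Il10rb, stood at 26.0 and 77.9 TPM and did not pass the 2-fold limit. The kinase genes Jak2 and Jak1 stood at 63.5 and 47.0 TPM and at 28.2 and 40.8 TPM. Jak2 passed as higher in the first library, a call that ended at -0.39 once the GC trend was removed. Jak1, at a log2 ratio of -0.79, did not pass, but passed as higher in the first library once the trend was removed (-2.42). Il17rc, a receptor chain for interleukin-17, stood at 0.76 and 65.2 TPM and passed as higher in the second library, but not once the trend was removed. Il17a had 0 counts in both libraries. Chosen after their values were seen, Il22 had 0 and 1 counts, while Il22ra1, a receptor chain for interleukin-22, stood at 0.55 and 51.9 TPM and Stat3 at 5.12 and 51.1 TPM. Il22ra1 and Stat3 passed as higher in the second library, and only Il22ra1 still did once the trend was removed.

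Of 19 microbial sensing genes, all tested, 5 passed as higher in the second and 8 as higher in the first (2 and 5 without the GC trend). The share that differed, 68.4%, was close to that of all genes. The median log2 ratio of this list was -0.01. Il18, a cytokine of the epithelium, stood at 439 and 214 TPM and passed as higher in the first library, but not once the trend was removed (-0.33). Nlrp6, an inflammasome sensor, stood at 6.51 and 103 TPM and passed as higher in the second, and as higher in the first once the trend was removed. The kinase gene Irak1 stood at 6.86 and 24.9 TPM. It did not pass (log2 ratio 0.35), but passed as higher in the first library once the trend was removed (-3.32). The alarmin gene Il33 stood at 16.6 and 14.9 TPM. It passed as higher in the first library (-1.43), but not once the trend was removed (-0.05). Myd88, named after its values were seen, stood at 1.91 and 22.9 TPM. It passed as higher in the second library (2.29), and as higher in the first once the trend was removed (-1.58).

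Among 4 genes for a proposed Reg receptor and its partners, 1 passed as higher in the second and 2 as higher in the first (0 and 2 without the GC trend). Extl3, the proposed Reg receptor, stood at 0.48 and 7.58 TPM. Fgfr2 stood at 10.8 and 30.5 TPM, Cd44 at 8.16 and 7.11 TPM and Egfr at 2.65 and 3.92 TPM. By log2 ratio, Extl3 (2.68) passed as higher in the second library, and Cd44 (-1.67) and Egfr (-1.01) as higher in the first. Fgfr2 (0.11) did not pass. Without the trend only Cd44 (-1.22) and Egfr (-1.32) passed. Each of the 4 was far below Reg1 in TPM.

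Other secreted lectins and antimicrobial proteins were listed without the defensins. Of 22 listed genes 15 were tested, and 10 passed as higher in the second and 0 as higher in the first, by the exact binomial test (9 and 1 without the GC trend). The share that differed was 66.7% with the trend kept or removed, against 67.7% and 35.2% of all genes, and its difference from the Reg genes was not tested. The median log2 ratio was 2.11, and 1.83 without the trend. Zg16, a goblet cell lectin, stood at 98.8 and 5584 TPM, and Lgals4, a galectin of the gut epithelium, at 34.3 and 2279 TPM. Lyz1, the Paneth cell lysozyme, stood at 795 and 2181 TPM and Pigr, which carries IgA into the lumen, at 974 and 1981 TPM. The last pair did not pass the 2-fold limit. Reg1 exceeded all 4 in both libraries, though in the second it stood at 5647 TPM beside 5584 TPM for Zg16.

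Several Reg genes are also pancreatic genes, so markers of other tissues and cell types were read in the same libraries. Of 19 acinar markers 18 were tested, of which 14 passed as higher in the second library and 1, Cpb1 (named after its values were seen), as higher in the first. That is 83.3% against 67.7% of all genes. With the GC trend removed the counts were again 14 and 1 (against 35.2%), but Cpb1 turned to 0.79 and no longer passed. Their summed level was 2775 and 17630.0 TPM, or 0.414% and 1.18% of counts. Amy2a5, pancreatic amylase, stood at 1355 and 1821 TPM, Cela2a at 137 and 3441 TPM, Ctrb1 at 12.5 and 2243 TPM and Clps at 2.53 and 1595 TPM. By log2 ratio Amy2a5 was lower in the second library (-0.85) without passing, and it passed as higher there once the GC trend was removed (1.37). Of the 7 islet markers 5 were tested, and 3 of these passed, each higher in the second. That is 60.0%, against 67.7% of all genes. Both insulin genes had 0 counts in the first library, while in the second Ins2 stood at 49.0 and Ins1 at 6.65 TPM. Iapp, at 4.11 and 6.98 TPM, and Pdx1, at 2.14 and 7.82 TPM, were found in both and did not pass. With the GC trend removed, 3 islet markers passed as higher in the second library and 1, Pdx1 (-2.52), as higher in the first. The share was then 80.0%, against 35.2% of all genes. Acinar transcripts were thus present in both libraries, and their part in the levels of Reg1, Reg2, Reg3a, Reg3b and Reg3d was not tested.

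Each list of markers of the small intestinal epithelium had counts in both libraries, but not each marker did. The enteroendocrine genes Ghrl and Pyy, named after their values were seen, had 0 counts in the first library and 544 and 18 in the second. The calls of these lists are to be read beside the 40.2% of all genes higher in the second and the 27.5% higher in the first. The 9 enterocyte markers summed to 0.733% and 4.10% of TPM, 7 of them higher in the second library and 1 higher in the first. The 9 Paneth markers summed to 0.333% and 1.55%, 6 of them higher in the second and 1 in the first. The 8 goblet markers summed to 0.049% and 1.23%, with 6 and 0, and the 13 enteroendocrine markers to 0.0065% and 0.065%, with 7 and 3 of 12 tested. Genes of the lower villus, where enterocytes express antimicrobial genes, summed to 0.149% and 0.660%, with 3 and 1 of 6. Proximal markers summed to 0.158% and 1.20%, with 4 and 2 of 8, and distal markers to 0.026% and 0.103%, with 2 and 0 of 4 tested. With the GC trend removed, the calls were 6 and 1 for enterocyte, 5 and 1 for Paneth, 7 and 0 for goblet, 4 and 1 for enteroendocrine, 2 and 1 for lower villus, 4 and 0 for proximal and 1 and 1 for distal markers. Beside these calls, 17.5% of all genes were higher in the second library and 17.6% higher in the first without the trend. The median log2 ratio of the enteroendocrine markers was 1.74, and 0.06 without the trend. Muc3 held 206 and 736 TPM of the distal sum of 259 and 1031 TPM. The ileal hormone gene Fgf15 had 0 counts in both. Of 10 stomach markers, Tff1, Gkn2, Atp4b, Muc5ac and Muc6 had 0 counts in both libraries, and the whole list summed to 3.34 and 96.3 TPM. Of 8 colon markers, Hoxb13 and Hoxd13 had 0 counts, and the list summed to 138 and 231 TPM, but to 0.0335% and 0.0314% of counts. Slc26a3 stood at 106 and 89.6 TPM. The 4 colon markers tested passed as 2 higher in the second library and 2 higher in the first (1 and 0 without the GC trend). The TPM sums of all these lists are shares of total TPM, of which mitochondrial genes and their copies held 72.3% and 21.6%. The part of cell makeup in the levels of the Reg genes was not tested.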

How the data were processed

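Gene and transcript tables in the RSEM format were deposited for 2 libraries, on mm10 with annotation M4 per the deposited notes. Aligner, quantifier version and read filters were not given in the sources used here. Per the file headers, expected counts were deposited as estimates that need not be whole. TPM values were deposited as length-corrected shares. FPKM values were deposited and used for 1 alternative. Isoform shares were deposited as a percent of gene TPM. Totals were 28277875 and 24509862 expected counts, and 97 spike-in and 26248 tRNA entries, all at 0, were left out.

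Symbols and positions came from GENCODE M21 (42462 of 43346 identifiers matched), and GC content covered 42721 genes. Mean fragment lengths in the tables were 191 and 178 bases. No quasi-likelihood fit in edgeR could be made with 1 library on each side. Rounded counts were compared with a two-sided exact binomial test instead, with TMM scaling (edgeR 4.0.16), for genes with 20 or more counts over both libraries, Benjamini-Hochberg adjustment and a prior of 0.5 counts for log2 ratios. It compares these libraries and not conditions. The reads carry no molecular identifiers and need not be independent molecules, so intervals cover counting error only. On simulated data with 15201 genes tested, the test recovered 91.5% of 3-fold changes (47 genes) and 98.0% of 6-fold changes (50 genes). These simulated counts held counting error only and no GC trend, so they do not show how far calls in these libraries can be relied on. The GC trend was a lowess fit (span 0.3, statsmodels 0.14.6) without mitochondrial genes and copies found by BLAST 2.17.0 (95% identity over 100 bases). Coding sequences were aligned with Biopython 1.88. Pair ratios were added after seeing the data.

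The members, gene lists and naming rule were chosen with earlier results of these data known. The rule names all Reg genes, up to 4 members of highest mean TPM of each list and its members at 0 counts, the 3 nearest protein-coding neighbours on each side, and the 3 genes nearest in level to Reg1 and Reg3b. Some genes that the rule names are not reported here. Alternatives were DESeq2 1.42.0 size factors, total counts, other count minimums, prior counts and fold limits, FPKM and TPM ratios, removal of the GC trend, summed groups and leaving out either library.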

Additional observations from a re-analysis of the deposited data

How the results depend on the processing

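Of 133 alternative values, 82 kept their direction and call or moved by less than the spread of the libraries. Of 62 for log2 ratios, 28 did. Levels and shares without either library count as kept by construction, because each of 2 values always lies within their standard deviation of the mean. They therefore say nothing about stability. The number of Reg genes that differed by 2-fold was 0, and it was 1 with DESeq2 size factors (Reg3g at -1.03), 4 with total counts, 3 with the GC trend removed by either GC content and 5 with no limit on the fold. The number of pathway genes was 37, and 22 or 15 with the GC trend removed by the gene mean or by the most abundant transcript, an alternative chosen after seeing the data. In the order total counts, GC trend removed, the same with the most abundant transcript, FPKM ratio and TPM ratio, the log2 ratio of Reg1 was 0.34, 0.63, 0.52, 0.31 and 0.76 (reversed from -0.50), and that of Reg3d 0.47, 0.55, 0.50, 0.44 and 0.89 (reversed from -0.37). In that order Reg2 was at 1.23, 1.68, 1.57, 1.24 and 1.67, Reg3a at 1.35, 1.28, 1.16, 1.33 and 1.77, and Reg3b at 1.26, 1.26, 1.14, 1.23 and 1.67, all now past 2-fold. Reg4 passed it with total counts (1.37), FPKM (1.35) and TPM (1.80). Reg3g reversed with the GC trend removed (0.22) and in TPM (0.31). Summed as one unit, the Reg3 genes were at 0.24, opposite to Reg3d and Reg3g, and Reg1 with Reg2 at -0.50, opposite to Reg2. Rescaled to nuclear genes, mean TPM was 9642 for Reg1, 3.11 for Reg2, 604 for Reg3a, 684 for Reg3b, 15.2 for Reg3d, 250 for Reg3g and 182 for Reg4. By counts, the share of Reg3d was 0.135%, and the transcripts of Reg3g held 95.2% and 4.83%. Apart from the changes of composition built into each scale, the cause was not tested. A ratio cannot be recomputed without either library, since 1 library stands on each side. No paired analysis was possible because there is 1 group. Depth limits Reg2 and Reg3d, which had at most 107 counts in a library.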

Other observations

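The deposited tables also give an interval around each TPM value, whose level the sources used here do not state. The deposited TPM of Reg1 lay above that interval in both libraries: 3343 beside 3217 to 3271 in the first, and 5647 beside 5351 to 5436 in the second. Over the 7 Reg genes, the TPM lay outside its interval for 1 gene in the first library and for 4 in the second.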
